A study of Homo sapiens with 4 samples.

Results

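The genes described here are 10 inflammatory genes of human cells: the interleukin-1 ligands IL1A and IL1B, the chemokines IL8, CXCL2, CXCL3 and CCL2, the cytokine IL32, and PTGS2, TNFAIP6 and BIRC3, which are induced by interleukin-1 or TNF through NF-kB. They were taken by gene symbol from the authors' deposited tables of genes that differed by at least 2-fold between cells with ADAR knocked down and their controls. All 10 were among the 1409 genes of the HepG2 table, and 1 of them, IL8, was among the 942 genes of the K562 table. They were selected on these measured values, the knockdown and control averages of the HepG2 and K562 tables and the folds between them, so those values are a description and are not tested. A gene that a table does not list is unlisted there, which does not mean that it was unaltered. The larger of the knockdown and control averages was at least 14 for every gene listed in HepG2 and 13.8 in K562. A gene may therefore also be unlisted because both of its averages were low.

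Interleukin-1 binds its receptor and, through the adaptor MYD88 and the IRAK kinases, activates the IKK complex. IKK marks the inhibitor IkB for destruction and frees NF-kB, a family of transcription factors that binds kappaB sites in the promoters of cytokine, chemokine and survival genes. Several NF-kB target genes encode brakes on the same pathway. ADAR, the gene knocked down, encodes ADAR1, an enzyme that edits adenosines to inosines where RNA is double-stranded.

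The study had 4 groups with 1 sample each: HepG2 cells stably carrying a plasmid with an siRNA against ADAR1, HepG2 cells carrying a scrambled siRNA, and the same pair in K562. HepG2 is an established line from a hepatocellular carcinoma and K562 an established erythroleukemia line. Total RNA was read as paired ends of 76 bases with 2 technical replicates per sample, and the tables give an average per group without the replicate values, so no SD, interval or p-value can be attached to any difference. The siRNA was the one with the best ADAR reduction among several that were tried, per the labels, which do not say whether each culture was a clone or a pool. ADAR averaged 129 in the knockdown and 461 in the control of HepG2, and 131 in the knockdown and 275 in the control of K562, so its direction matched the labels in both lines. The unit of the averages is not named and the library depth is unknown, so averages are compared within a gene and a line and not between genes. None of the 11 hepatocyte markers was in the HepG2 table and none of the 10 erythroid markers was in the K562 table; because the tables hold genes past 2-fold, this does not check the identity of either line.

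The promoters of 5 members are shown first. They belong to the 3 CXC chemokines, which include the gene listed in both lines, to BIRC3, the higher member whose fold depended least on the number added to the averages, and to IL32, a member that was lower. Each sequence is the 250 bases before the gene's start in RefSeq on GRCh38.p14, read 5′ to 3′ on the gene's own strand, in lower case. Capitals mark matches, on either strand, to a kappaB pattern: the 9-letter pattern GGNNNTTCC or the 10-letter kappaB consensus, which often overlap. These 5 are also all the members in which a kappaB match was found, so no window without a match is shown. The windows lie at chr4:73740319-73740568 (plus strand) for IL8, chr4:74099196-74099445 (minus strand) for CXCL2, chr4:74038690-74038939 (minus strand) for CXCL3, chr11:102317234-102317483 (plus strand) for BIRC3 and chr16:3065153-3065402 (plus strand) for the first of a pair of annotated IL32 starts.
IL8: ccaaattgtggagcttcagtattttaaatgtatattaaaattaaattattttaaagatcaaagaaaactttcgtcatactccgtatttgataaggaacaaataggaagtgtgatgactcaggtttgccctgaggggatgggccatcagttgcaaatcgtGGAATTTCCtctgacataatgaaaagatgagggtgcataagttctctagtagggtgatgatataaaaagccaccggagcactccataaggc
CXCL2: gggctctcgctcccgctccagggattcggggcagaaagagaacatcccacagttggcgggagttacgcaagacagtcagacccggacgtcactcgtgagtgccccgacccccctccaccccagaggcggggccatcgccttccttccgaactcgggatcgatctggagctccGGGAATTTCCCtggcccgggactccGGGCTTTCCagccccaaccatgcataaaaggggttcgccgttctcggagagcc
CXCL3: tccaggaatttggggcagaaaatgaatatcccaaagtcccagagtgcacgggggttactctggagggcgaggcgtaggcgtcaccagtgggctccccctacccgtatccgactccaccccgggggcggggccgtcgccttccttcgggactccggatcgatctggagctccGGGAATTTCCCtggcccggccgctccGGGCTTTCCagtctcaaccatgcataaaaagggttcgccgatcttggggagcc
BIRC3: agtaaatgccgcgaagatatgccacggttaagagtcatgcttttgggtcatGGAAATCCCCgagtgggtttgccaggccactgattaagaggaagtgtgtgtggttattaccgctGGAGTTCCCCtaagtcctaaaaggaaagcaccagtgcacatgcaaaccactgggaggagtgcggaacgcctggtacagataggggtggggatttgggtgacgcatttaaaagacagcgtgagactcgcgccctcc
IL32: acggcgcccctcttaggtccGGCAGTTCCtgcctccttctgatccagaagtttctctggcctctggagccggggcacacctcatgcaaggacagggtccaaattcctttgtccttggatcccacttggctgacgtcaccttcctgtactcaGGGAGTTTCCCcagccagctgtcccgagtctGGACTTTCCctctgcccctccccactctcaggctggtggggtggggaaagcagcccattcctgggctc

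The table of promoters held 11 windows for 9 of the 10 members; it holds no entry for CCL2. The 9-letter pattern, chosen because it takes the known kappaB site of IL8, was found in 5 of the 9 members: IL8, CXCL2, CXCL3, BIRC3 and IL32. The match in IL8 was thus fixed by the choice of pattern. By window, the pattern was found in 5 of the 11 member windows and in 17.1% of the 35116 promoter windows of all genes. The 10-letter consensus was found in CXCL2, CXCL3, BIRC3 and IL32, and in 9.96% of all windows. In CXCL2 a 9-letter match began 77 bases before the gene's start and another 53 bases before it; in CXCL3 these distances were 78 and 53 bases. The windows of CXCL2 and CXCL3 were 73.3% identical over their alignment, so their matches are not separate observations. IL8 had its match 91 bases before the start, with a match to the AP-1 pattern TGANTCA 137 bases before it and a TATAAA match 31 bases before it.

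TGANTCA was also found in IL1A and TNFAIP6, and in 6.57% of all windows. TATAAA was also found in PTGS2, 32 bases before its start, and in IL1A, 239 bases before 1 of its annotated starts. Of all windows, 10.7% held TATAAA. No kappaB match was found in the windows of IL1A, IL1B, PTGS2 and TNFAIP6, which says only that these letters are not in these 250 bases. The lower member IL32 had 3 matches to the 9-letter pattern before its first annotated start, more than any higher member. No kappaB match was found before its other annotated start. A match in a promoter is a description of its letters and not evidence that a factor binds there.

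**Figure D1:**
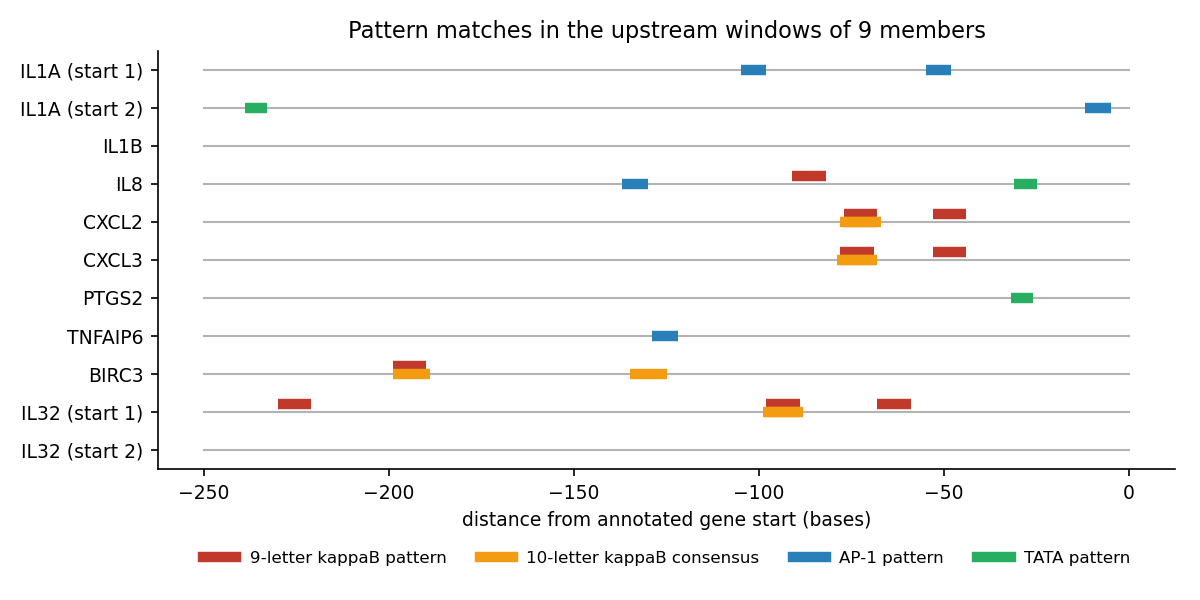
Matches to 4 patterns in the 250 bases upstream of the annotated starts of 9 members, with distance from the start in bases on the horizontal axis and 1 line per annotated start. The 5 members with a kappaB match include IL32, which was lower in the HepG2 knockdown, and IL1A, IL1B, PTGS2 and TNFAIP6 have none in this window.

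In HepG2, 8 members were higher in the knockdown than in the control and 2 were lower. The higher ones were IL1A, IL1B, IL8, CXCL2, CXCL3, PTGS2, TNFAIP6 and BIRC3, and the lower ones were CCL2 and IL32. Of all 1409 listed genes, 55.0% were higher. All 8 of the higher members were past 4-fold, as were 8.94% of the listed genes in that direction. Of the 2 lower members, 1 was past 4-fold, as were 8.16% of the listed genes on that side, and 45.0% of the listed genes were lower at 2-fold. These shares stand beside counts that chose the members, and nothing is read from them. The median log2 fold of the 10 members was 3.86, against 1.05 over all listed genes. Because the table holds no gene within 2-fold and more genes were higher than lower, its own median had to fall past the upper limit, so it is a description of the table and not a level without effect. It was 3.85 over the 9 members whose control average was above 0. Folds are the ratio of the averages after adding 1 to each, the ratio behind the authors' deposited log2 folds. In bulk RNA, a difference in the level per cell and a difference in the share of cells that express a gene cannot be told apart.

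Both interleukin-1 ligands were higher in the HepG2 knockdown. IL1A (ENSG00000115008), which encodes a cytokine that is active before processing and acts as an alarm signal from damaged cells, averaged 80.2 in the knockdown and 3 in the control. This was a 20.3-fold difference. IL1B (ENSG00000125538), whose product must be cut by caspase-1 before it is active, averaged 58.5 in the knockdown and was listed at 0 in the control, so no fold is given. IL1B was 1 of 2 genes listed at 0 in the HepG2 control. Neither ligand was listed in K562. None of the transcript stretches of 76 bases from IL1A or IL1B occurs exactly in a transcript of another annotated gene. Matches with mismatches, or outside annotated transcripts, were not looked for.

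The 3 listed CXC chemokines of HepG2 all carry the ELR motif of neutrophil attractants and signal through CXCR2, and each was higher in the knockdown. IL8 (ENSG00000169429, now named CXCL8) averaged 304 in the knockdown and 2.75 in the control. It ranked at position 2 of the 1409 genes by fold. CXCL2 (ENSG00000081041) averaged 184 in the knockdown and 3 in the control, a 46.2-fold difference. CXCL3 (ENSG00000163734) averaged 94.2 in the knockdown and 5.5 in the control, a 14.6-fold difference. CXCL2 and CXCL3 are close paralogs: 6.81% of the 76-base stretches of CXCL2 transcripts also occur in CXCL3, and 4.52% of those of CXCL3 occur in CXCL2. How shared reads were assigned is not given in the sources used here. For IL8 no such stretch is shared with another annotated gene.

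These low control averages make the size of the folds depend on the number added. The IL8 fold in HepG2 was 81.3 with 1 added, 107 with 0.1 added and 24.6 with 10 added. The CXCL2 fold was 59.4 with 0.1 added and 14.9 with 10 added, and the IL1A fold was 25.9 and 6.94 with the same additions. The order of the 3 chemokines, IL8 then CXCL2 then CXCL3, was the same under all 3 additions.

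CCL2 (ENSG00000108691), a CC chemokine that attracts monocytes through CCR2, was lower in the HepG2 knockdown. Its average was 5 in the knockdown and 28.5 in the control, 4.92-fold lower. With 10 added in place of 1 the CCL2 fold was 2.57, no longer past 4-fold. CCL2 was the sole listed gene of the 27 CC and other chemokines looked for in HepG2, and none of them was listed in K562. IL32 (ENSG00000008517), which encodes a cytokine unrelated in sequence to interleukin-1, averaged 15.7 in the knockdown and 47.4 in the control, 2.90-fold lower. IL32 was the member nearest to the 2-fold limit of the table; members just outside the limit are not seen there. It overlaps a long noncoding RNA gene on the opposite strand in the reference annotation, and 1.29% of its 76-base stretches occur in RNU1-125P, a U1 pseudogene on the same strand. Neither of these neighbours was listed, and since the use of strand in counting is not given, reads from the opposite strand cannot be told apart from those of IL32.

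PTGS2, TNFAIP6 and BIRC3 act downstream of the cytokine signal, and each was higher in the HepG2 knockdown. PTGS2 (ENSG00000073756), the inducible cyclooxygenase of prostaglandin synthesis, averaged 292 in the knockdown and 19.4 in the control, a 14.4-fold difference. TNFAIP6 (ENSG00000123610), a secreted hyaluronan-binding protein, averaged 32.2 in the knockdown and 2 in the control, an 11.1-fold difference. With 10 added in place of 1 the TNFAIP6 fold was 3.51. TNFAIP6 overlaps small RNA genes in the annotation, none of them listed. BIRC3 (ENSG00000023445), the ubiquitin ligase cIAP2 that guards against TNF-induced cell death, averaged 868 in the knockdown and 119.9 in the control. With 1 added its 7.18-fold difference was the smallest among the 7 higher members that have a fold, and it moved least with the number added, between 6.76 and 7.23.

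**Figure D2:**
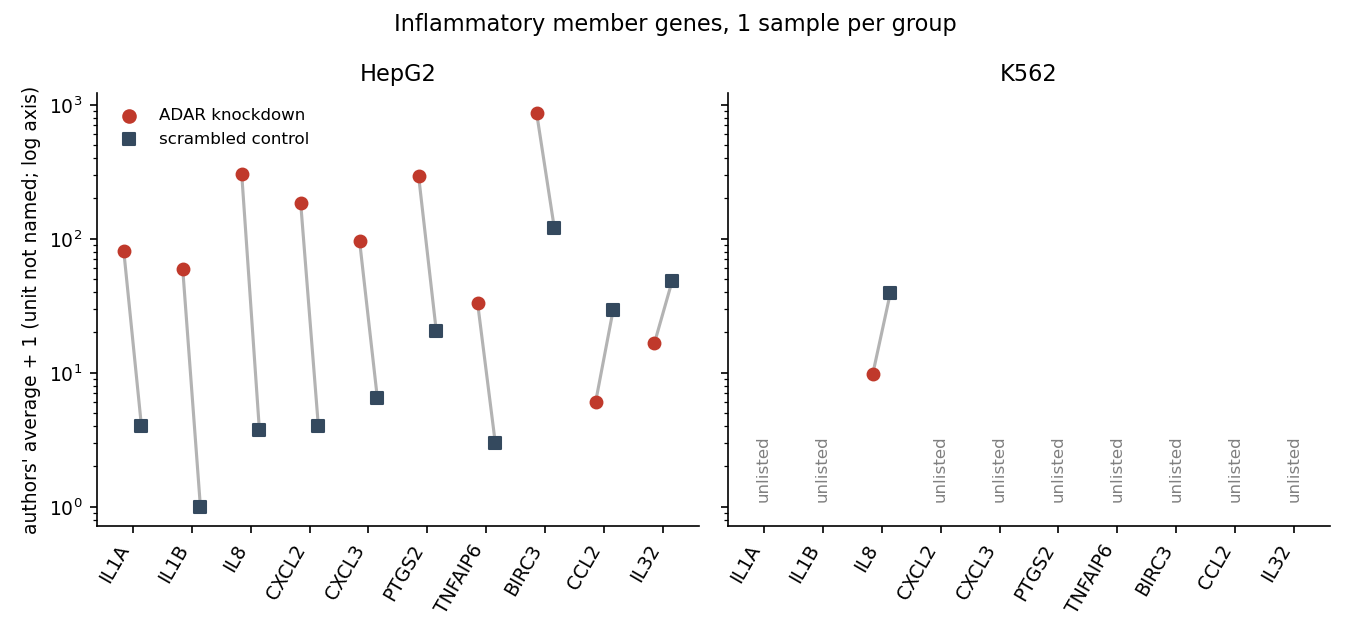
Authors' averages plus 1 on a log axis for the 10 members in ADAR knockdown (circles) and scrambled control (squares), with HepG2 on the left and K562 on the right and 1 sample per group. In HepG2 the circle lies above the square for 8 members and below it for CCL2 and IL32; in K562 IL8 is the 1 member listed, and its circle lies below its square.

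**Figure D3:**
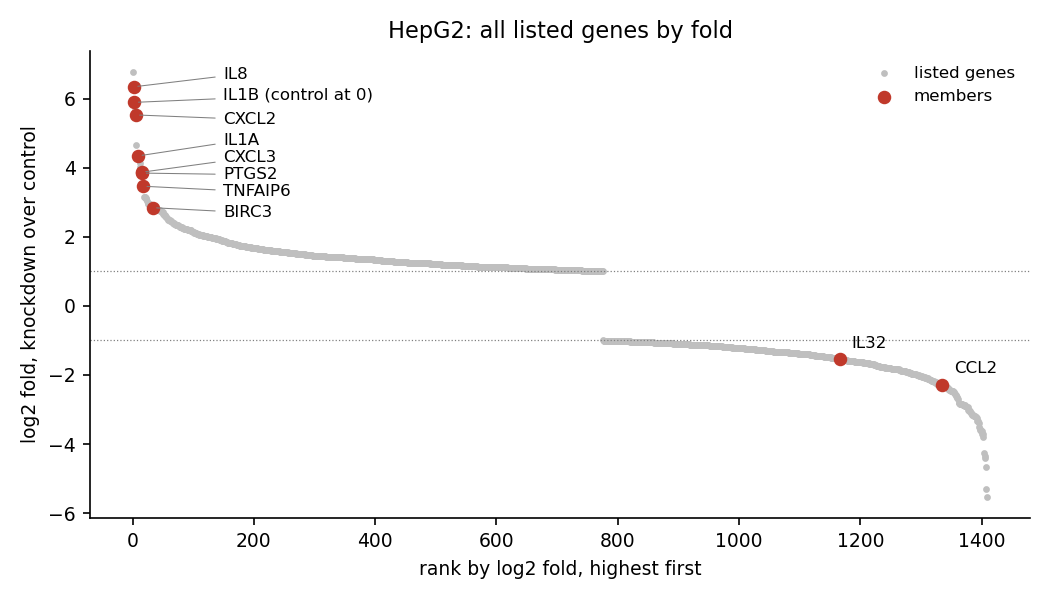
Log2 fold of knockdown over control for all 1409 genes listed in HepG2, ordered from the highest, with the members in red and dotted lines at the 2-fold limit. The 8 higher members lie between positions 2 and 33, and IL32 and CCL2 lie on the lower side; IL1B is placed by its value with 1 added although its control average is 0.

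IL8 was the 1 member that could be compared between the lines, and its direction differed. In K562 it averaged 8.75 in the knockdown and 38.5 in the control, 4.05-fold lower, at position 49 from the lowest of the 942 listed genes. Of all genes listed in K562, 61.8% were lower and 38.2% were higher. The log2 fold was 6.35 in HepG2 and -2.02 in K562, a difference of 8.36 on the log2 scale between single samples, which was not tested. With 10 added in place of 1 the difference was 5.99, with the same signs. The control averages of IL8, 2.75 in HepG2 and 38.5 in K562, come from separate tables, and whether they were put on a common scale is not given. The other 9 members were unlisted in K562, so for them the lines cannot be compared. ADAR itself was 3.54-fold lower in the HepG2 knockdown and 2.09-fold lower in the K562 knockdown, so the lines also differed in the measured depth of knockdown. The part of this in the differences between the lines was not tested.

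There were 48 genes with a symbol in both tables, 5.07% of the 946 named genes of HepG2 and 10.8% of the 446 of K562. Of these, 24 were higher in HepG2 and lower in K562, 9 were lower in HepG2 and higher in K562, 5 were higher in both and 10 were lower in both. IL8 had the largest difference in log2 fold between the lines among the 48. The 5 genes nearest to it by distance in the plane of the log2 folds, a measure over 2 comparisons, were INHBE, STC2, NMI, IL20RB and PHLDA1. INHBE, an inhibin beta subunit gene, averaged 675 in the knockdown and 32.5 in the control of HepG2, and 52.2 in the knockdown and 169.8 in the control of K562. Even this nearest gene lay 2.04 log2 units from IL8, and NMI, the third, lay 4.20 away. IL20RB, a receptor subunit for interleukin-20 family cytokines, averaged 344.5 in the knockdown and 72.5 in the control of HepG2, and 9 in the knockdown and 21.5 in the control of K562.

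**Figure D4:**
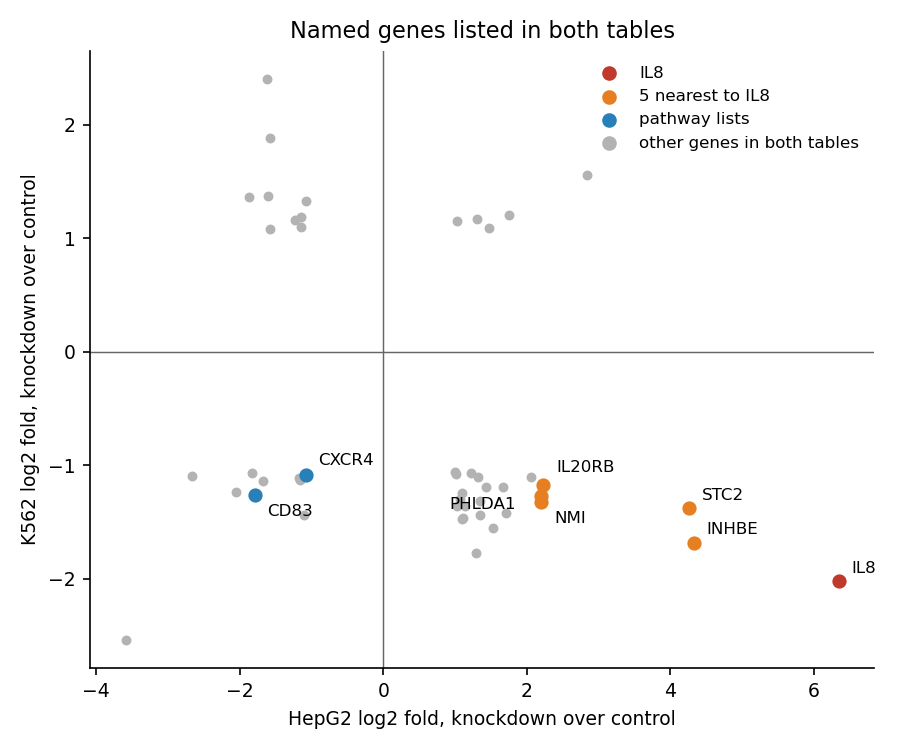
Log2 fold of knockdown over control in HepG2 (horizontal) against K562 (vertical) for the 48 named genes in both tables. IL8 stands at 6.35 and -2.02, farthest to the right of all points, and the pathway genes CXCR4 and CD83 are lower in both lines.

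Outside the members, 204 genes of the surrounding pathway were looked for, in lists by role. In HepG2, 25 of them were listed, 19 higher and 6 lower in the knockdown, where 55.0% of all listed genes were higher. Their median log2 fold was 1.41, against 1.05 over all listed genes. The K562 table held 6 of them, of which 1 was higher and 5 were lower; their median log2 fold was -1.07, against -1.09 for the whole table. The lists were written with earlier results of these data known, and the share of listed genes that were lower in K562 was 61.8%. The number of genes measured in either line is not given. The share of all measured genes that were listed is therefore unknown, and nothing is read from how many pathway genes were listed.

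Among ligands, receptors and signal carriers, few genes were listed. Of the 8 other interleukin-1 family ligands, IL18, which like IL1B is activated by caspase-1, averaged 230.2 in the knockdown and 107 in the control of HepG2. Of 22 receptors and signalling genes, the kinase gene IRAK2 averaged 110.0 in the knockdown and 40.7 in the control of HepG2, 2.66-fold higher. In K562 the one listed gene of that list was TRAF6, the ubiquitin ligase downstream of the IRAK kinases, with 59.5 in the knockdown and 24.2 in the control. None of the other 13 CXC chemokines was listed in HepG2, and CXCL16, a membrane-bound chemokine, averaged 6.33 in the knockdown and 14.2 in the control of K562. Both listed chemokine receptors were lower in the HepG2 knockdown, as were 45.0% of all genes listed there. CXCR4, the CXCL12 receptor, averaged 155 in the knockdown and 329 in the control. CXCR7, which scavenges CXCL12, averaged 5.25 in the knockdown and 15.5 in the control. CXCR4 was lower in K562 as well, at 7 in the knockdown and 16 in the control. The control averages of CXCR7 in HepG2 and of CXCL16 and CXCR4 in K562 lie near the smallest that the tables hold. Those smallest larger averages are 14 in HepG2 and 13.8 in K562.

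The listed genes of the NF-kB machinery were higher in the HepG2 knockdown, and most of them encode inhibitors or modulators. Of 5 NF-kB subunits, RELB, of the noncanonical pathway, averaged 70.4 in the knockdown and 28 in the control. Of 14 inhibitors and IKK genes, 4 were listed and all 4 were higher (median log2 fold 1.89), beside 55.0% of all listed genes. TNFAIP3, which encodes the deubiquitinase A20 that ends NF-kB signalling, averaged 342.5 in the knockdown and 80.8 in the control, 4.20-fold higher. BCL3, an atypical IkB protein, was 4.27-fold higher, with 172 in the knockdown and 39.5 in the control. NFKBIZ, another atypical IkB protein, was 3.27-fold higher, and TNIP1, a partner of A20, stood at the limit of the table with 2.00-fold. No gene of either list was in the K562 table.

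Of 45 further NF-kB target genes, 10 were listed in HepG2, 9 higher and 1 lower, beside 55.0% higher among all listed genes, and their median log2 fold was 1.72. The largest difference was that of IL6, which averaged 450.2 in the knockdown and 7.83 in the control. The listed gene LOC541472 overlaps IL6 on the opposite strand, with 409.8 in the knockdown and 2.75 in the control, and since the use of strand is not given the reads of the pair cannot be told apart. LCN2, an iron-scavenging secreted protein, averaged 23.9 in the knockdown and 2 in the control, 8.29-fold higher. TNFAIP2 averaged 1269 in the knockdown and 162 in the control, 7.77-fold higher. PTX3, a pentraxin that binds TNFAIP6 in hyaluronan matrix, averaged 23.8 in the knockdown and 3 in the control. SOD2, the mitochondrial superoxide dismutase, was 3.42-fold higher, with 941 in the knockdown and 274.5 in the control. BIRC2, which encodes cIAP1, the paralog of the BIRC3 product, was 2.17-fold higher, with 171 in the knockdown and 78.2 in the control; this is a smaller fold than that of BIRC3, and BIRC2 was picked for this comparison after its values were seen. CD83, a surface protein of activated immune cells, was the lower gene, with 91.7 in the knockdown and 319 in the control. In K562, 3 genes of this list were listed and all were lower, as were 61.8% of all genes listed there. CD83 averaged 9 in the knockdown and 23 in the control, and TRAF1 averaged 25.5 in the knockdown and 53 in the control. CSF1 averaged 6 in the knockdown and 15.5 in the control, near 13.8, the smallest larger average among genes listed in K562.

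The cyclooxygenase isoforms went in opposite directions in HepG2. PTGS1, the constitutive isoform, averaged 79.5 in the knockdown and 238 in the control, 2.97-fold lower, whereas PTGS2 was higher. PTGES, the inducible prostaglandin E synthase that works with PTGS2, averaged 984 in the knockdown and 362 in the control, 2.72-fold higher. PTGFR, the receptor for prostaglandin F2alpha, averaged 24 in the knockdown and 4 in the control. AKR1C3, which can form prostaglandin F2alpha, was 2.38-fold lower; how its reads were kept apart from those of its close AKR1C relatives is not stated. With PTGS2 left out, the prostanoid list of 20 genes thus had 4 listed, 2 in each direction, beside 55.0% higher among all listed genes. Of the 14 genes of hyaluronan turnover and TNFAIP6 partners, HYAL1, a hyaluronidase gene, was listed, with 70 in the knockdown and 201 in the control. TNFRSF12A, the TWEAK receptor, was the listed gene among 17 of TNF receptor signalling, with 542 in the knockdown and 249 in the control. No gene of these 3 lists was in the K562 table.

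**Figure D5:**
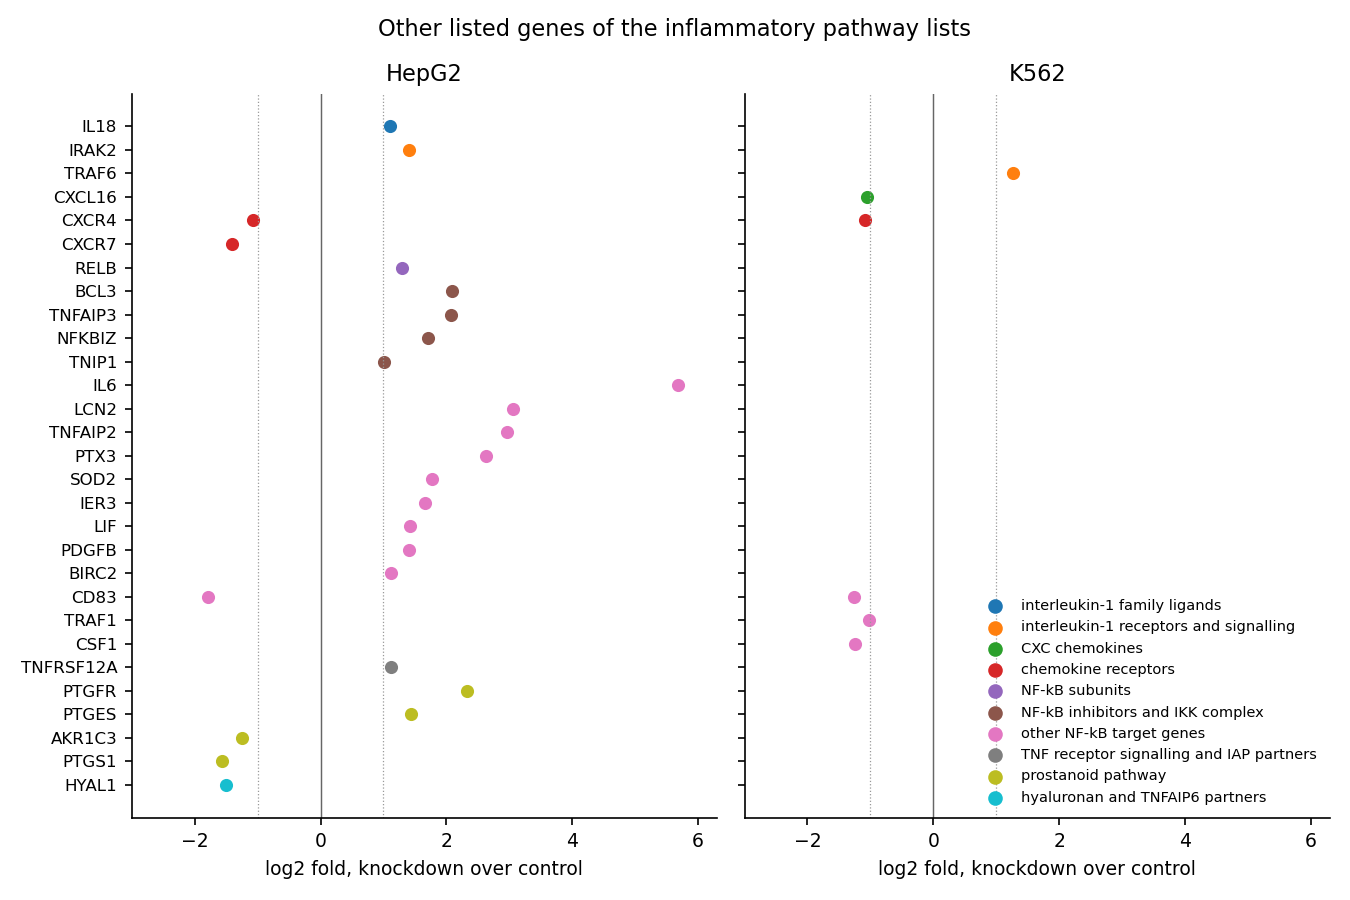
Log2 fold of knockdown over control for each listed gene of the pathway lists other than the members, in HepG2 (left) and K562 (right), coloured by list, with dotted lines at the 2-fold limit. In HepG2, 19 of 25 lie to the right of 0, and in K562 5 of 6 lie to the left.

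Markers of other cell types were looked for beside these results. None of 9 myeloid, 6 lymphoid or 4 endothelial markers was in the HepG2 table. Of 10 erythroid markers 1 was listed there, the embryonic globin gene HBZ, with 34.9 in the knockdown and 16.6 in the control. Of 6 fibroblast markers, 3 were listed there: DCN averaged 774 in the knockdown and 261 in the control, LUM 1445 in the knockdown and 528 in the control, and COL3A1 34.5 in the knockdown and 323 in the control. Their summed averages were 2253 in the knockdown and 1112 in the control; LUM makes up most of the sum in the knockdown, COL3A1 went the other way, and averages of different genes may not be on 1 scale. None of the 3 was at 0. In K562, 1 of 9 myeloid markers was listed, ITGAM, with 11.6 in the knockdown and 28.8 in the control, beside the lower IL8. The part of these markers in the results was not tested.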

How the data were processed

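RNA from HepG2 and K562 cells with ADAR knocked down or a scrambled control was sequenced, per the labels, with 1 sample per group. Per the submitters' processing notes, TopHat, SAMtools and the hg19 build were used; how genes were counted, on which annotation, with or without strand and with what scaling is not given in the sources. Each line had 1 table of genes past 2-fold. The averages per group were deposited without a named unit and are treated as a signal. The deposited log2 fold equalled the log2 ratio of the averages plus 1 within 1e-06, and the signed fold, a score in the deposited tables, follows the same ratio. Depth is unknown.

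Where a symbol occurred more than once, its row of highest mean was kept: 1409 of 1413 HepG2 rows and 942 of 945 K562 rows. No test was possible with 1 sample per group, and called means listed. The members, pathway lists and the rule for named genes (the members, ADAR, up to 6 listed genes of each list by size of fold, and the 5 genes nearest to IL8) were chosen with earlier results of these data known. Promoters came from RefSeq on GRCh38.p14; overlaps and 76-base stretches of transcripts came from GENCODE 29, over both strands. The pattern search was tested on simulated windows. The alternatives were other pseudocounts, thresholds, filters, scalings, rows and matching; Python 3.11.15, numpy 2.4.6, pandas 2.3.3 and matplotlib 3.10.9 were used.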

Additional observations from a re-analysis of the deposited data

Results flagged for a closer look

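IL8 went in opposite directions in the knockdowns of the 2 lines, with 304 in the knockdown and 2.75 in the control of HepG2, and 8.75 in the knockdown and 38.5 in the control of K562. The log2 fold of HepG2 minus that of K562 was 8.36. Each line had 1 sample per group, so the difference was not tested. Of the 48 named genes in both tables, 24, IL8 among them, were higher in HepG2 and lower in K562. The opposite direction is thus common among these genes, and IL8 was selected on these same values.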

How the results depend on the processing

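No paired analysis was possible because each group has 1 sample. Each technical replicate alone was not run, because the tables hold averages. The count of 8 higher members in HepG2 stayed between 7 and 8, and the difference of the IL8 log2 fold between the lines between 5.99 and 8.86, over the alternatives that gave a value; the K562 row of IL8 is lost at a larger average of 50 or more. The 2 lower members of HepG2 became 1 at a 3-fold or 4-fold threshold or with knockdown averages multiplied by 1.5, where the log2 fold of IL32 was -0.98, and 0 at a larger average of 50 or more, which also left 0 lower members in K562. The 19 higher pathway genes of HepG2 became 10 at 3-fold, 7 at 4-fold and 10 with knockdown averages divided by 1.5, and the 6 lower ones became 1 at 3-fold, 0 at 4-fold and 1 with knockdown averages multiplied by 1.5. In K562 the 1 higher pathway gene became 0 at 3-fold, at 4-fold and with knockdown averages divided by 1.5, and the 5 lower ones became 0 at 3-fold, at 4-fold, with a pseudocount of 10 and with knockdown averages multiplied by 1.5, and 1 at a larger average of 50 or more. Thresholds and filters leave fewer genes by construction. The alternatives could not turn a direction, because every listed gene differs by at least 2-fold, an added number never carries a ratio past 1 and a scaling by 1.5 is less than that fold, so the directions say nothing about stability. Folds in which either the control or the knockdown average was 5.5 or less are the least certain, since depth is unknown.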

Other observations

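The interleukin-1 and CXC chemokine members lie in clusters of related genes, and most of their neighbours were unlisted. From IL8 to CXCL2 the reference annotation places 9 protein-coding genes, of which IL8, CXCL3 and CXCL2 were in the HepG2 table; CXCL6, PF4V1, CXCL1, PF4, PPBP and CXCL5 were not. From IL1A to IL1RN it places 9 protein-coding genes, of which IL1A and IL1B, which are next to each other, were in the HepG2 table and IL1RN, which encodes the interleukin-1 receptor antagonist, was not. IL8 was the 1 gene of these clusters in the K562 table. These clusters were chosen after the values were seen. Their listed genes are all members, which were selected on these values, and the share of all annotated genes that are unlisted was not computed. Nothing is read from these counts.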
